A study of Mus musculus with 18 samples.

Results

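The genes described here encode the nuclear lamina and proteins anchored in the nuclear envelope: the lamins *Lmna*, *Lmnb1* and *Lmnb2*, the inner nuclear membrane proteins *Lbr*, *Emd* and *Tmpo*, and the LINC complex genes *Sun1*, *Sun2*, *Syne1* and *Syne2*. They were chosen by name, for the proteins they encode, with earlier results of these data known. They make 10 of the 62197 gene entries in the expression table. Each of the 10 matched 1 entry, and all 10 passed the filter on low values and were tested among 17875 genes.

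The lamina is a meshwork of A-type and B-type lamins under the inner nuclear membrane that gives the nucleus its stiffness and holds heterochromatin at the nuclear rim. Lamin B receptor, emerin and thymopoietin are inner membrane proteins that bind lamins or chromatin, and SUN and nesprin proteins join across the envelope to link the nucleus to the cytoskeleton. Immune cells that squeeze through tissue have to deform their nucleus, and the make-up of the lamina is known to set how easily it deforms.

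Bulk RNA-seq was done on mouse bone marrow-derived dendritic cells (DCs) after 10 days of culture with GM-CSF, to ask how shape change alters expression with and without cPLA_2_, the phospholipase encoded by *Pla2g4a*. Libraries of polyadenylated RNA fell into 6 groups of 3, 18 in all. The depth ran from 33027230 to 61300021 gene reads per library (median 40950397). The replicates are separate samples by their labels, which do not say whether they come from separate animals or cultures, so p-values measure only the spread between these samples.

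The nonconfined cPLA_2_ WT and cPLA_2_ KO groups were taken at the end of culture with no treatment, and their libraries held medians of 39851237 and 37116045 reads. The confined cPLA_2_ WT and cPLA_2_ KO groups were held in a chamber 3 µm high and collected 4 h after confinement, with medians of 42049558 and 33672070 reads. The LPS groups, labelled cPLA_2_ WT and cPLA_2_ KO, received the bacterial product LPS at 100 ng/ml for 30 min, were washed and were recovered the next day, with medians of 52482280 and 43169041 reads. The cPLA_2_ KO cells come from mice with a floxed *Pla2g4a* crossed to *Itgax-cre*, which acts in cells that express CD11c, so cells in the culture that never switched on CD11c keep the gene. The labels do not give the age or sex of the mice behind each library. By the study's methods, only the semiadherent cells were kept as DCs. That step is meant to leave out granulocytes and macrophages, which also arise in such culture. Counts are given as normalized counts, which are read counts per gene divided by a size factor for each library and not scaled for gene length.

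The targeted gene was checked before the members. In nonconfined cells, *Pla2g4a* measured 697, 686 and 770 normalized counts in the cPLA_2_ WT libraries and 548, 542 and 533 in the cPLA_2_ KO libraries. In confined cells it measured 1369, 1430 and 1321 in cPLA_2_ WT and 923, 871 and 920 in cPLA_2_ KO. Within each treatment it was therefore lower in every cPLA_2_ KO library than in every cPLA_2_ WT library, while transcript remained in all of them. Confined cPLA_2_ KO libraries were above nonconfined cPLA_2_ WT libraries. In the LPS libraries the order was the opposite, with 1005, 969 and 967 in those labelled cPLA_2_ WT and 1065, 1032 and 1028 in those labelled cPLA_2_ KO.

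The Y-linked gene *Ddx3y* was at most 3.05 normalized counts in the 6 nonconfined and confined cPLA_2_ WT libraries and between 874 and 1036 in the 6 cPLA_2_ KO libraries. *Xist*, which is transcribed from the inactive X chromosome and was looked at after its values were seen, ranged from 22734 to 33681 in the nonconfined and confined cPLA_2_ WT libraries. In the cPLA_2_ KO libraries it ranged from 12153 to 19081 when nonconfined and from 16980 to 24835 when confined, so these held transcripts of both genes. The labels do not say whether cells of several mice were pooled. *Ddx3y* thus moved with genotype in these 12 libraries, and genotype and donor cannot be told apart. In the LPS libraries *Ddx3y* measured 1271, 0 and 662 in replicates 1, 2 and 3 labelled cPLA_2_ WT and 2.12, 1476 and 783 in replicates 1, 2 and 3 labelled cPLA_2_ KO. Replicates 1 and 3 labelled cPLA_2_ WT and replicate 1 labelled cPLA_2_ KO go against their labels in this gene. LPS results are therefore given for libraries as labelled, and again without those 3 libraries, a setting chosen after the values had been seen. It leaves 1 library labelled cPLA_2_ WT, which is assumed to vary like the other groups. The setting rests on *Ddx3y* alone. *Xist* ranged from 16450 to 30960 over all 6 LPS libraries, replicate 3 of each label lay between the other 2 in *Ddx3y*, and the 3 retained libraries still go against their labels in *Pla2g4a* (969 labelled cPLA_2_ WT, 1032 and 1028 labelled cPLA_2_ KO).

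Markers of the cells in the culture were measured as lists of genes summed in each library. The 15 DC markers, all expressed and led by *Cd74*, the class II chaperone, summed to 642730 to 674545 normalized counts in nonconfined cPLA_2_ WT, 739475 to 752926 in nonconfined cPLA_2_ KO, 602554 to 638179 in confined cPLA_2_ WT and 563755 to 591110 in confined cPLA_2_ KO. In LPS libraries they summed to 810805 to 917947 when labelled cPLA_2_ WT and 809769 to 898839 when labelled cPLA_2_ KO. With confinement 5 were called higher and 8 lower in cPLA_2_ WT and 2 and 12 in cPLA_2_ KO, and with LPS 11 and 2, and 10 and 2. The 14 neutrophil markers, led by *S100a9*, summed to 258697, 263558 and 261774 in nonconfined cPLA_2_ WT libraries and to 394727, 358413 and 383097 in nonconfined cPLA_2_ KO libraries. After confinement they summed to 172574, 164756 and 162750 in cPLA_2_ WT and to 362159, 371503 and 357845 in cPLA_2_ KO. The 8 eosinophil markers, led by *Prg2*, summed to 33440, 33348 and 33284 in nonconfined cPLA_2_ WT, 82530, 76508 and 78589 in nonconfined cPLA_2_ KO, 9858, 9354 and 9236 in confined cPLA_2_ WT, and 25013, 24679 and 25560 in confined cPLA_2_ KO. Both granulocyte sums were thus higher in each cPLA_2_ KO library than in each cPLA_2_ WT library among nonconfined and among confined cells. In LPS libraries labelled cPLA_2_ WT and cPLA_2_ KO the sums overlapped, at 304504 to 322448 and 290756 to 326289 for neutrophil and 27548 to 47547 and 27528 to 47777 for eosinophil markers. With confinement, 0 neutrophil genes were called higher and 12 lower in cPLA_2_ WT and 2 and 6 in cPLA_2_ KO, and of the eosinophil genes 1 and 6 in cPLA_2_ WT and 0 and 7 in cPLA_2_ KO.

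The 11 macrophage markers summed to 67286 to 70391 in nonconfined cPLA_2_ WT, 74329 to 78732 in nonconfined cPLA_2_ KO, 194630 to 203782 in confined cPLA_2_ WT and 86282 to 93780 in confined cPLA_2_ KO, and to 142828 to 150037 and 141247 to 144929 in LPS libraries labelled cPLA_2_ WT and cPLA_2_ KO, with *Cd14*, an LPS co-receptor that DCs also express, as the most abundant over all libraries. Group means of *Cd14* alone were 1899 and 1983 in nonconfined and 131510 and 16429 in confined cPLA_2_ WT and cPLA_2_ KO, and 87039 and 84891 in LPS libraries so labelled. Of the 11 genes, 2 were called higher and 5 lower with confinement in each genotype, with medians of -0.15 and -0.21, and 3 and 4, and 3 and 6, with LPS labelled cPLA_2_ WT and cPLA_2_ KO. Mast cell and basophil markers (10 genes, led by *Hdc*) summed to 9836 to 10048 in nonconfined cPLA_2_ WT, 14395 to 14956 in nonconfined cPLA_2_ KO, 15776 to 16423 in confined cPLA_2_ WT, 8283 to 8539 in confined cPLA_2_ KO and 18618 to 21225 in LPS libraries. Group means of *Hdc* alone were 735 and 1040 in nonconfined and 12370 and 1458 in confined cPLA_2_ WT and cPLA_2_ KO, and 10841 and 10976 in LPS libraries so labelled. With confinement 2 of 8 tested genes of this list were called higher and 5 lower in cPLA_2_ WT and 2 and 6 in cPLA_2_ KO, with medians of -1.51 and -1.08. With LPS 1 was called higher and 2 lower among libraries labelled cPLA_2_ WT and 1 and 7 among those labelled cPLA_2_ KO. The medians were -0.11 and -0.63. T cell, B cell and erythroid markers (10 genes, led by *Cd3g*) summed to 2604 to 2628 and 3042 to 3372 in nonconfined cPLA_2_ WT and cPLA_2_ KO, 801 to 913 and 1169 to 1375 in confined cPLA_2_ WT and cPLA_2_ KO, and 613 to 693 in LPS libraries. Over all 18 libraries, fibroblast and stromal markers (6 genes, led by *Col1a1*) summed to 118 to 346. *Tpsab1*, a mast cell tryptase, was the only listed marker at 0 in all libraries. In bulk samples of this kind, fewer cells of a type and less RNA per cell cannot be told apart. The part of these cells in the results on the members was not tested.

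Per kilobase of exon, *Lmnb1* was the most abundant member in nonconfined cPLA_2_ WT cells at 1874 normalized counts per kb, followed by *Sun2* at 1188, *Emd* at 903 and *Lmna* at 869. The remaining 6 lay between 47.0 for *Syne2* and 245 for *Sun1*. These levels depend on the length used, here the union of exons. Per kilobase of the longest transcript, a length tried after the values had been seen, *Tmpo* stood at 627 and *Sun1* at 353, and the order of the first 4 was the same. In confined cPLA_2_ WT cells *Lmna* led at 3600 per kb, with *Lmnb1* at 3376 and *Emd* at 2701. In confined cPLA_2_ KO cells *Lmna* measured 3212 per kb while *Lmnb1* stood at 1282 and *Emd* at 1184. By the longest transcript *Lmna* led in both confined groups, and *Emd* was above *Lmnb1* at 4496 against 3775 in confined cPLA_2_ WT and 1971 against 1434 in confined cPLA_2_ KO cells. The levels of each member in all 18 libraries are given in the plot of normalized counts by group.

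**Figure D1:**
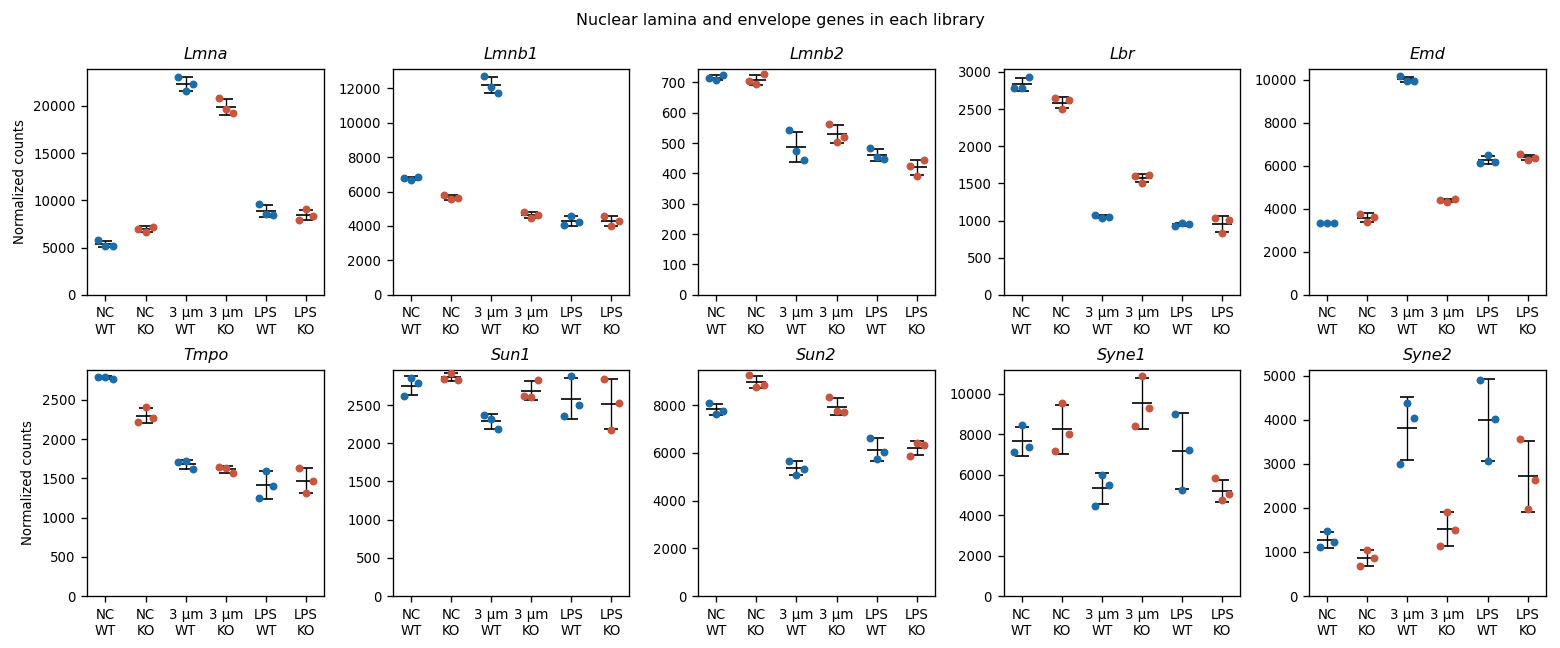
Normalized counts (y axis, each starting at 0) of the 10 genes in the 6 groups, nonconfined (NC), confined at 3 µm and LPS, with WT in blue and KO in red as labelled. Points are single libraries, and dashes and bars are the mean ± SD (n = 3). *Lmna* was highest in confined cells of both genotypes, with group means of 22307 and 19904, while *Lmnb1* and *Emd* were highest in confined WT cells, at 12187 and 10009.

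None of the 6 groups was confined at another height, so the height of 3 µm and time in the chamber cannot be told apart. With confinement of cPLA_2_ WT cells, *Lmna*, *Emd*, *Syne2* and *Lmnb1* rose and the other 6 members fell. This makes 10 of 10 members called by limma at an adjusted p under 0.05, 4 higher and 6 lower, against 28.2% of all tested genes higher and 28.4% lower. In cPLA_2_ KO cells 8 of 10 were called, 3 higher and 5 lower, against 22.8% higher and 23.4% lower of all genes. Over the members the median log2 fold change was -0.40 (cPLA_2_ WT) and -0.13 (cPLA_2_ KO), beside -0.01 and 0.01 over all tested genes.

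The change with confinement differed between the genotypes by the interaction term in 6 of 10 members. It was higher in cPLA_2_ KO for *Lbr*, *Sun2* and *Syne1* and lower for *Lmna*, *Lmnb1* and *Emd*, against 10.2% of all genes higher and 15.6% lower. Scaling each library to the same total in place of the deposited size factors shifted the median of all tested genes by -0.22 (log2) for confinement in cPLA_2_ WT, by -0.03 in cPLA_2_ KO and by 0.19 for the interaction. The shift was -0.50 and -0.47 for LPS in libraries labelled cPLA_2_ WT and cPLA_2_ KO, 0.15 for cPLA_2_ KO against cPLA_2_ WT confined cells, and 0.28 and 0.44 for confined against LPS cells labelled cPLA_2_ WT and cPLA_2_ KO. Under that scaling no called member changed direction with confinement or in the interaction, and *Lmnb2*, *Sun1* and *Tmpo* were also called in the interaction, all 3 higher, while 26.5% of all genes were higher and 11.0% lower. The interaction of *Lmna* was then -0.35 and that of *Sun2* 0.56. Among the lists of other genes, the interaction was higher for 11 of 14 neutrophil genes with 0 lower, 12 of 25 cell division genes with 0 lower and 4 of 8 mast cell and basophil genes with 1 lower. It was higher for 1 and lower for 8 of 15 DC markers, 0 and 2 of 11 macrophage markers, and 1 and 1 of 8 eosinophil genes. Their part in the results on the members was not tested.

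**Figure D2:**
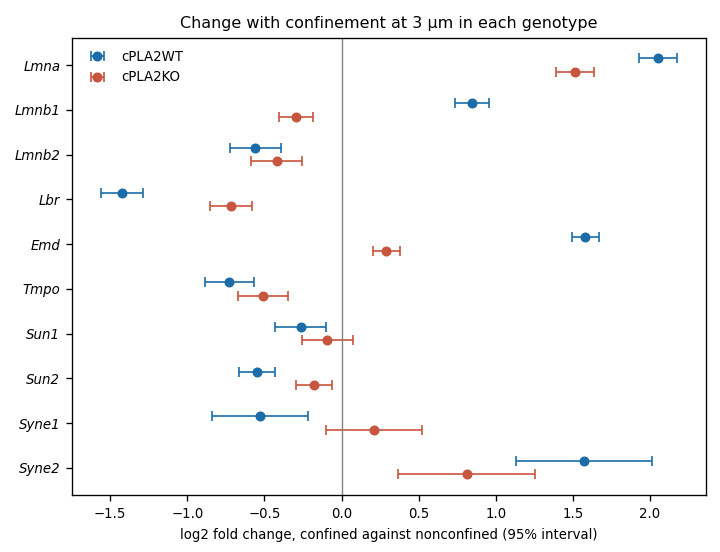
Log2 fold change of each gene in confined against nonconfined cells (x axis), in WT (blue) and KO (red) cells, with 95% intervals from limma over 18 libraries. The intervals of *Lmnb1* lie on opposite sides of 0 in the 2 genotypes, with changes of 0.85 and -0.29, and those of *Emd* lie apart at 1.58 and 0.29.

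*Lmna* (chr3:88387476-88410659, minus strand, mm39) encodes lamins A and C, the A-type lamins that stiffen the nucleus. It measured 5779, 5214 and 5166 normalized counts in nonconfined cPLA_2_ WT libraries and 23027, 21591 and 22303 in confined ones. In cPLA_2_ KO libraries it measured 6996, 6664 and 7231 when nonconfined and 20873, 19640 and 19199 when confined. Every confined library of either genotype thus held at least 19199 and every nonconfined library at most 7231. The increase was 4.14-fold in cPLA_2_ WT (log2 fold change 2.05 ± 0.06, SE, adjusted p = 1.7e-17 by limma) and 2.86-fold in cPLA_2_ KO (1.51 ± 0.06, adjusted p = 1.35e-14), and it was smaller in cPLA_2_ KO by the interaction (-0.54 ± 0.08, adjusted p = 3.7e-05).

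The genotypes also differed in *Lmna* without confinement, where all 3 cPLA_2_ KO libraries were above all 3 cPLA_2_ WT libraries (log2 fold change 0.37 ± 0.06, adjusted p = 0.000401 by limma). After confinement the order was the opposite, with the cPLA_2_ KO libraries below those of cPLA_2_ WT and a difference of -0.16 ± 0.06 (adjusted p = 0.0302). That call was lost with the same total per library (-0.01, adjusted p = 0.896), with no filter (0.0559), and without confined cPLA_2_ WT replicate 1 (0.109) or 3 (0.0692) or confined cPLA_2_ KO replicate 2 (0.0802) or 3 (0.118). Over the 6 groups *Lmna* was ordered confined cPLA_2_ WT, confined cPLA_2_ KO, LPS labelled cPLA_2_ WT, LPS labelled cPLA_2_ KO, nonconfined cPLA_2_ KO and nonconfined cPLA_2_ WT, and only the neighbouring LPS groups overlapped.

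*Lmnb1* (chr18:56840884-56886494, plus strand) encodes the B-type lamin B1, which is farnesylated and stays bound to the inner membrane. Nonconfined cPLA_2_ WT libraries held 6765, 6696 and 6831 normalized counts and confined cPLA_2_ WT libraries 12700, 12105 and 11756. Nonconfined cPLA_2_ KO libraries held 5828, 5554 and 5647 and confined cPLA_2_ KO libraries 4786, 4457 and 4646. The gene was therefore at least 11756 in the 3 confined cPLA_2_ WT libraries and at most 6831 in the 15 others, the LPS libraries included. It rose in cPLA_2_ WT (log2 fold change 0.85 ± 0.05, adjusted p = 1.06e-11 by limma), fell in cPLA_2_ KO (-0.29 ± 0.05, adjusted p = 0.000103), and the changes differed by -1.14 ± 0.07 (adjusted p = 8.44e-11). Confined cPLA_2_ KO cells were 2.63-fold below confined cPLA_2_ WT cells (-1.40 ± 0.05, adjusted p = 3.3e-15), and nonconfined cPLA_2_ KO cells were lower as well (-0.25 ± 0.05, adjusted p = 0.00452).

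Exons of *Lmnb1* share 466 bases with *Marchf3* and 160 with *Gm58425*, both on the other strand in the GENCODE annotation of GRCm39. The libraries are strand-specific by the labels, but whether strand was used in counting is not given in the sources used here, so reads over those bases cannot be assigned with certainty.

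*Lmnb2* (chr10:80737198-80754079, minus strand), the gene of lamin B2, was the least abundant lamin in all 6 groups, at 91.7 to 156 normalized counts per kb. It ranged from 694 to 728 normalized counts in the 6 nonconfined libraries and from 392 to 562 in the other 12, with no overlap. It fell with confinement in both genotypes (log2 fold changes -0.56 ± 0.08 and -0.42 ± 0.08, adjusted p = 3.3e-06 and 0.000171 by limma), and the 2 changes were not shown to differ (0.14 ± 0.11, adjusted p = 0.411). Antisense transcripts *Gm66154* and *Gm66160* share 802 and 533 exon bases with it, which leaves its level uncertain to that extent.

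The ratio of A-type to B-type lamin transcripts, *Lmna* over the sum of *Lmnb1* and *Lmnb2* in normalized counts per kb, was computed in each library as a description without a test. It was 0.459, 0.419 and 0.407 in nonconfined cPLA_2_ WT, and 0.639, 0.636 and 0.677 in nonconfined cPLA_2_ KO. Confined cPLA_2_ WT libraries had ratios of 1.02, 1.01 and 1.07, and confined cPLA_2_ KO libraries 2.33, 2.36 and 2.21. The ratio was thus highest in confined cPLA_2_ KO cells, in which *Lmna* was high while *Lmnb1* was not. In LPS libraries it was 1.26, 1.01 and 1.06 when labelled cPLA_2_ WT and 0.941, 1.23 and 1.06 when labelled cPLA_2_ KO, which overlapped each other and the confined cPLA_2_ WT libraries.

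**Figure D3:**
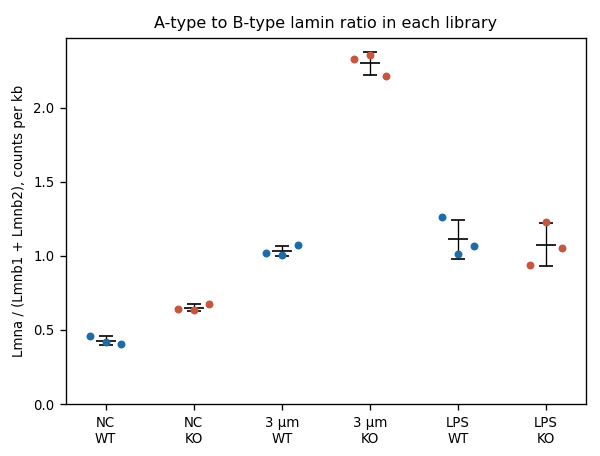
Ratio of *Lmna* to the sum of *Lmnb1* and *Lmnb2* in normalized counts per kb of exon (y axis, starting at 0) in the 6 groups, nonconfined (NC), confined at 3 µm and LPS, WT in blue and KO in red as labelled. Points are libraries and bars the mean ± SD (n = 3). The means were 0.428 and 0.651 in nonconfined, 1.03 and 2.30 in confined and 1.11 and 1.08 in LPS libraries.

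Among the inner membrane proteins, *Lbr* (chr1:181620823-181669966, minus strand) encodes a receptor that tethers heterochromatin to the B-type lamina and is also a sterol reductase. It measured 2784, 2789 and 2937 normalized counts in nonconfined cPLA_2_ WT and 1079, 1035 and 1052 in confined cPLA_2_ WT libraries. In cPLA_2_ KO it measured 2646, 2500 and 2616 when nonconfined and 1601, 1505 and 1613 when confined. Confined cPLA_2_ KO libraries thus lay between the confined cPLA_2_ WT and the nonconfined libraries, with no overlap on either side. *Lbr* fell 2.69-fold in cPLA_2_ WT (log2 fold change -1.43 ± 0.07, adjusted p = 5.17e-14 by limma) and 1.64-fold in cPLA_2_ KO (-0.72 ± 0.07, adjusted p = 1.04e-08). The decrease was smaller in cPLA_2_ KO by the interaction (0.71 ± 0.09, adjusted p = 3.86e-06). Exons of *Dnah14* on the other strand share 1391 bases with *Lbr*, and these reads are likewise uncertain.

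*Emd* (chrX:73298293-73305154, plus strand) encodes emerin, a LEM-domain protein that binds lamin A. Its counts were 3326, 3357 and 3349 in nonconfined cPLA_2_ WT and 10163, 9945 and 9918 in confined cPLA_2_ WT libraries. They were 3775, 3371 and 3621 in nonconfined cPLA_2_ KO and 4398, 4323 and 4439 in confined cPLA_2_ KO libraries. All 3 confined cPLA_2_ WT libraries thus held at least 9918 and all 3 confined cPLA_2_ KO libraries at most 4439. *Emd* rose 2.99-fold in cPLA_2_ WT (log2 fold change 1.58 ± 0.04, adjusted p = 6.67e-18 by limma) and 1.22-fold in cPLA_2_ KO (0.29 ± 0.04, adjusted p = 9.41e-06). At -1.29 ± 0.06 (adjusted p = 2.7e-13) its interaction was the farthest from 0 among the 10 members. The gene is X-linked, and genotype and donor cannot be told apart. A pseudogene on the same strand, *Gm14686*, shares 343 exon bases with *Emd*, so its count may include reads of both.

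*Tmpo* (chr10:90983433-91007481, minus strand) encodes thymopoietin, or LAP2, whose forms bind lamins and chromatin. It ranged from 2764 to 2799 normalized counts in nonconfined cPLA_2_ WT, 2220 to 2413 in nonconfined cPLA_2_ KO, 1614 to 1719 in confined cPLA_2_ WT and 1567 to 1647 in confined cPLA_2_ KO libraries. Both confined groups were below both nonconfined groups, and the confined groups overlapped each other. The log2 fold changes were -0.73 ± 0.08 (cPLA_2_ WT) and -0.51 ± 0.08 (cPLA_2_ KO, adjusted p = 4.95e-08 and 1.26e-05 by limma), with an interaction of 0.22 ± 0.11 (adjusted p = 0.157), which was called in a fit of the compared groups alone (adjusted p = 0.0212). Nonconfined cPLA_2_ KO cells were below nonconfined cPLA_2_ WT cells in *Tmpo* (-0.28 ± 0.08, adjusted p = 0.0279). That call was lost without nonconfined cPLA_2_ WT replicate 1 (0.0801), 2 (0.0845) or 3 (0.0774) and without nonconfined cPLA_2_ KO replicate 1 (0.12) or 3 (0.0934).

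Genes of cell division were measured beside the members. With confinement 24 of 25 were called lower in cPLA_2_ WT and 23 in cPLA_2_ KO, none higher, against 28.4% and 23.4% of all genes lower. Their summed level was 105860, 107944 and 107935 normalized counts in nonconfined cPLA_2_ WT, 86479, 87706 and 85819 in nonconfined cPLA_2_ KO, 60183, 59921 and 59772 in confined cPLA_2_ WT and 60960, 60527 and 60577 in confined cPLA_2_ KO libraries, with *Top2a*, the mitotic topoisomerase, as the most abundant. This list had a median log2 fold change of -0.86 (cPLA_2_ WT) and -0.46 (cPLA_2_ KO). The replication helicase gene *Mcm2* fell most in both (-1.62 ± 0.14 and -1.13 ± 0.14). The part of cell division in the levels of *Lbr*, *Tmpo* and the other members was not tested.

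In the LINC complex, SUN proteins span the inner membrane and bind lamins, and nesprins span the outer membrane and reach the cytoskeleton. *Sun1* (chr5:139186392-139235594, plus strand) varied least of the members between groups, with group means of 2289 to 2864 normalized counts. It was lower in confined (2183 to 2372) than in nonconfined cPLA_2_ WT libraries (2614 to 2857), a log2 fold change of -0.27 ± 0.08 (adjusted p = 0.00651 by limma), or -0.49 with the same total per library. In cPLA_2_ KO the ranges of 2606 to 2831 and 2823 to 2923 overlapped (-0.09 ± 0.08, adjusted p = 0.358), and the changes in the genotypes were not shown to differ (0.17 ± 0.11, adjusted p = 0.283). Confined cPLA_2_ KO libraries were above confined cPLA_2_ WT libraries (0.23 ± 0.08, adjusted p = 0.0233, and 0.39 with the same total per library). That call was lost without replicate 3 of the confined cPLA_2_ WT (0.0962) or the confined cPLA_2_ KO group (0.102).

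*Sun2* (chr15:79608269-79626738, minus strand) measured 8072, 7634 and 7754 normalized counts in nonconfined and 5652, 5075 and 5335 in confined cPLA_2_ WT libraries. In cPLA_2_ KO it measured 9257, 8768 and 8856 when nonconfined and 8353, 7742 and 7702 when confined. Confined cPLA_2_ KO libraries thus overlapped the nonconfined cPLA_2_ WT libraries, and confined cPLA_2_ WT libraries were the lowest of all 6 groups. It fell with confinement in cPLA_2_ WT (log2 fold change -0.55 ± 0.06, adjusted p = 2.69e-08 by limma), and the change was smaller in cPLA_2_ KO (interaction 0.37 ± 0.08, adjusted p = 0.00111). In cPLA_2_ KO alone the decrease of -0.18 ± 0.06 was called (adjusted p = 0.0128) but not without nonconfined cPLA_2_ KO replicate 1 (-0.15, 0.0556) or confined cPLA_2_ KO replicate 3 (-0.16, 0.0562). Nonconfined cPLA_2_ KO cells exceeded nonconfined cPLA_2_ WT cells (0.20 ± 0.06, adjusted p = 0.0304). This was not called with no filter (0.0562) or without nonconfined cPLA_2_ WT replicate 2 (0.118) or 3 (0.0993) or nonconfined cPLA_2_ KO replicate 1 (0.136) or 3 (0.074).

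*Syne1* (chr10:4970201-5501483, minus strand) encodes the giant nesprin 1. It measured 7134, 8458 and 7351 normalized counts in nonconfined and 4474, 5980 and 5509 in confined cPLA_2_ WT libraries. In cPLA_2_ KO libraries it measured 7157, 9569 and 8009 when nonconfined and 8406, 10863 and 9318 when confined. Confined cPLA_2_ WT libraries were all below the nonconfined ones, whereas the cPLA_2_ KO groups overlapped. *Syne1* fell in cPLA_2_ WT (log2 fold change -0.53 ± 0.15, adjusted p = 0.00451 by limma), was not called in cPLA_2_ KO (0.21 ± 0.15, adjusted p = 0.263), and the changes differed by 0.74 ± 0.21 (adjusted p = 0.012). Confined cPLA_2_ KO cells were 1.79-fold above confined cPLA_2_ WT cells (0.84 ± 0.15, adjusted p = 0.000104).

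*Syne2* (chr12:75865091-76157674, plus strand), the gene of nesprin 2, had the widest span of group means of the members, from 856 to 3991 normalized counts, or 2.22 on the log2 scale. It measured 1116, 1483 and 1219 in nonconfined and 3000, 4383 and 4027 in confined cPLA_2_ WT libraries. The cPLA_2_ KO libraries held 680, 1036 and 853 when nonconfined and 1131, 1907 and 1507 when confined. The gene was higher in each confined library than in each nonconfined library of its genotype, and confined cPLA_2_ KO overlapped nonconfined cPLA_2_ WT. It rose 2.97-fold in cPLA_2_ WT (log2 fold change 1.57 ± 0.21, adjusted p = 1.75e-06 by limma) and 1.75-fold in cPLA_2_ KO (0.81 ± 0.21, adjusted p = 0.00356). The interaction of -0.76 ± 0.30 was not called (adjusted p = 0.0691), but it was in a fit of the compared groups alone (0.023) and without nonconfined cPLA_2_ KO replicate 1 (0.0382), confined cPLA_2_ WT replicate 1 (0.0369) or confined cPLA_2_ KO replicate 2 (0.0294). Confined cPLA_2_ KO cells were 2.53-fold below confined cPLA_2_ WT cells (-1.34 ± 0.21, adjusted p = 2.85e-05).

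Antisense transcripts share 321 exon bases with *Sun1*, 147 and 56 with *Sun2*, 167 with *Syne1* and 55 with *Syne2*, whose reads are uncertain. The 2 nesprin genes deviated together within groups. In nonconfined and confined cells replicate 2 was the highest and replicate 1 the lowest of its group for both genes, and in LPS libraries replicate 1 was the highest and replicate 2 the lowest. Their annotated transcripts are long. In nonconfined cPLA_2_ KO cells, *Syne2* deviated from the group mean by 0.30 in replicate 2 and -0.31 in replicate 1 (log2), the 331 tested genes with a transcript over 10 kb had median deviations of 0.12 and -0.09, and the 1037 genes with one under 2 kb had -0.09 and 0.07. In confined cPLA_2_ KO cells *Syne2* deviated by 0.36 and -0.39 in those replicates and the long genes by 0.04 and -0.03. The median of the long genes changed by 0.06 with confinement in cPLA_2_ WT and 0.16 in cPLA_2_ KO, beside -0.03 and -0.02 over all 11158 tested genes with a mean of at least 100. With LPS it changed by 0.20 and 0.21 in libraries labelled cPLA_2_ WT and cPLA_2_ KO, beside 0.05 and 0.05. Between cPLA_2_ KO and cPLA_2_ WT it was -0.17 in nonconfined cells, -0.06 in confined cells and -0.14 in LPS libraries as labelled, beside 0.00, 0.02 and 0.00, and for the interaction it was 0.10 beside 0.03. For confined against LPS it was -0.10 and -0.05, beside -0.06 and -0.05. The part of transcript length in the results on *Syne1* and *Syne2* was not tested.

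Comparing the genotypes directly, 4 of 10 members were called in nonconfined cells, *Lmna* and *Sun2* higher and *Lmnb1* and *Tmpo* lower in cPLA_2_ KO, against 4.78% of all genes higher and 4.11% lower. The count was 2 without nonconfined cPLA_2_ WT replicate 2 or 3 or nonconfined cPLA_2_ KO replicate 1 or 3, and 6 without nonconfined cPLA_2_ KO replicate 2. In the same order the share of all genes called was 4.68%, 4.73%, 4.23% and 4.84%, and 11.7%, beside 8.88% with all libraries. *Syne2* (-0.58 ± 0.21, adjusted p = 0.0985 by limma) and *Emd* (0.10 ± 0.04, adjusted p = 0.163) were not called there, and each was called without nonconfined cPLA_2_ KO replicate 2 (-0.73 and 0.14, adjusted p = 0.0488 and 0.0268). In confined cells 8 of 10 were called, with *Lbr*, *Sun1*, *Sun2* and *Syne1* higher and *Lmna*, *Lmnb1*, *Emd* and *Syne2* lower in cPLA_2_ KO, against 18.8% higher and 20.6% lower. *Lmnb2* (0.12 ± 0.08, adjusted p = 0.24) and *Tmpo* (-0.06 ± 0.08, adjusted p = 0.593) did not pass in confined cells. With the same total per library *Lmnb2* was called (0.28, adjusted p = 0.00446) and the uncalled value of *Tmpo* was 0.10. Of the marker lists, neutrophil genes were higher in cPLA_2_ KO in 9 of 14 nonconfined and 14 of 14 confined tests, with 0 lower, and eosinophil genes in 6 of 8 of each, with 1 lower in nonconfined and 2 in confined cells. Of 8 tested mast cell and basophil genes 5 were higher and 0 lower in nonconfined and 6 and 1 in confined cPLA_2_ KO cells, and of 11 macrophage genes 4 and 0, and 5 and 2. Of 15 DC markers 5 were higher and 3 lower in nonconfined and 2 and 4 in confined cPLA_2_ KO cells, and of 25 cell division genes 1 and 13, and 4 and 2. Their part in the results on the members was not tested. The comparisons by confinement and by genotype share libraries, so their results are not separate evidence.

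LPS served as the microbial stimulus beside confinement. In libraries labelled cPLA_2_ WT, 8 of 10 members were called against nonconfined cells, 3 higher and 5 lower, while 33.4% of all genes were higher and 29.4% lower. Among libraries labelled cPLA_2_ KO all 10 were called, 3 higher and 7 lower, while 33.4% of all genes were higher and 30.1% lower. *Lmna*, *Emd* and *Syne2* were the 3 higher members in both. Without the 3 libraries that go against their labels, 9 members were called among those labelled cPLA_2_ WT, 3 higher and 6 lower, against 28.6% of all genes higher and 25.0% lower. In the same setting 10 were called among those labelled cPLA_2_ KO, 3 higher and 7 lower, against 32.4% and 29.4%. These comparisons use the same nonconfined libraries as those of confinement. In libraries labelled cPLA_2_ WT, 4 of 14 neutrophil genes were called higher and 8 lower with LPS, and 0 of 8 eosinophil genes higher and 1 lower. Those labelled cPLA_2_ KO had 1 higher and 10 lower, and 0 and 6. Of 8 tested mast cell and basophil genes, 1 was higher and 2 lower when labelled cPLA_2_ WT, and 1 and 7 when labelled cPLA_2_ KO. Their part in the results on the members was not tested.

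*Syne2* measured 4899, 3056 and 4019 normalized counts in LPS libraries labelled cPLA_2_ WT and 3565, 1967 and 2623 in those labelled cPLA_2_ KO. Each was above every nonconfined library, and the labelled groups overlapped. The log2 fold changes were 1.63 ± 0.21 and 1.64 ± 0.21 (adjusted p = 7.49e-07 and 6.78e-07 by limma), and 1.27 and 1.43 without the libraries against their labels. *Emd* measured 6130, 6498 and 6167 in libraries labelled cPLA_2_ WT and 6534, 6281 and 6340 in those labelled cPLA_2_ KO, all of them above nonconfined cells and below confined cPLA_2_ WT cells. Its log2 fold changes were 0.91 ± 0.04 and 0.83 ± 0.04 (adjusted p = 5.15e-14 and 2.24e-13), and 0.96 and 0.82 without those libraries. The same total per library gave 0.39 and 0.35 for *Emd*, both called, and 1.12 and 1.16 for *Syne2*.

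*Lmna* measured 9583, 8573 and 8406 in LPS libraries labelled cPLA_2_ WT and 7921, 9039 and 8383 in those labelled cPLA_2_ KO. All 6 lay above the nonconfined and below the confined libraries. The log2 fold change was 0.72 ± 0.06 in libraries labelled cPLA_2_ WT (adjusted p = 5.84e-10 by limma) and 0.28 ± 0.06 in those labelled cPLA_2_ KO (adjusted p = 0.000303), and 0.67 and 0.32 without the libraries against their labels. With the same total per library the value labelled cPLA_2_ KO turned to -0.20 (adjusted p = 0.00138), while that labelled cPLA_2_ WT stayed positive at 0.20. *Lmnb1* measured 4044, 4584 and 4252 in libraries labelled cPLA_2_ WT and 4571, 3973 and 4275 in those labelled cPLA_2_ KO. These were below every nonconfined library, with log2 fold changes of -0.66 ± 0.05 and -0.41 ± 0.05 (adjusted p = 4.34e-10 and 6.24e-07), and of -0.56 and -0.46 without those libraries. These were -1.17 and -0.89 with the same total per library.

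*Lbr* measured 926, 971 and 949 in LPS libraries labelled cPLA_2_ WT and 1028, 832 and 1002 in those labelled cPLA_2_ KO, the lowest levels of this gene in the 6 groups. It fell by 1.58 and 1.44 on the log2 scale (adjusted p = 4.74e-15 and 2.23e-14 by limma). Without the libraries against their labels both decreases were called too (adjusted p = 2.04e-12 and 3.85e-14). *Lmnb2* fell by 0.63 and 0.75, *Tmpo* by 0.99 and 0.65, and *Sun2* by 0.35 and 0.53 in libraries labelled cPLA_2_ WT and cPLA_2_ KO, all 6 values called. Without those libraries the falls were 0.65 and 0.76 for *Lmnb2*, 0.80 and 0.73 for *Tmpo*, and 0.45 and 0.49 for *Sun2*, again all called. Scaled to the same total per library, *Lmnb2* measured -1.14 and -1.23, *Sun2* -0.87 and -1.01, and *Tmpo* -1.50 and -1.13. Cell division genes were lower here too, with 24 of 25 called lower among libraries labelled cPLA_2_ WT and 22 among those labelled cPLA_2_ KO, and sums of 41508 to 52808 normalized counts in the 6 libraries. Lists were not recomputed without the libraries against their labels.

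*Syne1* measured 9029, 5243 and 7248 in LPS libraries labelled cPLA_2_ WT, a wide range that spanned the nonconfined cPLA_2_ WT libraries, and 5819, 4763 and 5025 in those labelled cPLA_2_ KO. It was not called among libraries labelled cPLA_2_ WT (-0.12 ± 0.15, adjusted p = 0.493 by limma), and it was called without the libraries against their labels (-0.54, adjusted p = 0.00381), with the 6 LPS libraries pooled (-0.34, adjusted p = 0.025) and with the same total per library (-0.64, adjusted p = 0.00111). Among libraries labelled cPLA_2_ KO it fell by 0.66 (adjusted p = 0.000586), by 0.74 without the library against its label and by 1.14 with the same total per library. *Sun1* ranged from 2362 to 2884 in libraries labelled cPLA_2_ WT (-0.09 ± 0.08, adjusted p = 0.309), where it was called with the same total per library (-0.61, adjusted p = 2.21e-06) and measured 0.07 without the libraries against their labels.

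In libraries labelled cPLA_2_ KO, *Sun1* ranged from 2175 to 2837, a change of -0.20 ± 0.08 (adjusted p = 0.0338 by limma) of -0.29 without the library against its label (adjusted p = 0.000524) and of -0.68 with the same total per library. The first of these calls was lost with no filter (0.0595), in a fit of the compared groups alone (0.0787), without nonconfined cPLA_2_ KO replicate 1 (0.0599), 2 (0.0844) or 3 (0.0559), and without replicate 2 (-0.10, 0.264) or 3 (0.0577) labelled cPLA_2_ KO.

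Between LPS libraries labelled cPLA_2_ KO and cPLA_2_ WT, limma called 0 of 10 members, and 0% of all tested genes higher and 0% lower. At an unadjusted p under 0.05 there were 2 members, *Syne1* (-0.43 ± 0.15) and *Syne2* (-0.57 ± 0.21), and 890 of all genes, and edgeR and DESeq2 also called 0 members and 0 genes. Without the libraries against their labels, 0 members were called, while 320 genes of all tested were higher and 215 lower. Several members were ordered alike within the LPS groups. *Tmpo*, for example, measured 1245, 1595 and 1401 in replicates 1, 2 and 3 labelled cPLA_2_ WT and 1627, 1310 and 1473 in those labelled cPLA_2_ KO, so that the highest library of each group was the one near 0 in *Ddx3y*. *Lmnb1* and *Sun1* were also highest in those 2 libraries of the 6, and the eosinophil sum was lowest in them, at 27548 and 27528 against 38108 to 47777 in the other 4. The cell division sum was highest in them, at 52808 and 52324 against 41508 to 47866 in the other 4. The part of the labels in these results was not tested.

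Confined cells were collected 4 h after confinement and LPS cells the next day, so stimulus and time cannot be told apart. Set directly against LPS, confined cells differed in 6 of 10 members among libraries labelled cPLA_2_ WT, 4 higher and 2 lower, against 21.6% of all genes higher and 27.2% lower. For those labelled cPLA_2_ KO the count was 7 of 10, 5 higher and 2 lower, against 28.1% higher and 30.6% lower. Beside these, among libraries labelled cPLA_2_ WT, 2 of 14 neutrophil genes were called higher and 11 lower, 2 of 8 eosinophil genes higher and 6 lower, 2 of 15 DC markers higher and 11 lower, and 20 of 25 cell division genes higher and 1 lower. Among those labelled cPLA_2_ KO the counts higher and lower were 6 and 3, 1 and 5, 3 and 12, and 20 and 1. Of 11 macrophage genes 4 were higher and 6 lower among libraries labelled cPLA_2_ WT, and 3 and 3 among those labelled cPLA_2_ KO. Of 8 tested mast cell and basophil genes 1 was higher and 5 lower under each label. Their part in the results on the members was not tested. Without the libraries against their labels the member counts were 4 (3 higher, 1 lower) and 10 (8 higher, 2 lower), against 16.6% higher and 21.2% lower, and 27.5% higher and 29.8% lower, of all genes. *Lmna* was higher in confined cells of either label (1.33 ± 0.06 and 1.24 ± 0.06, adjusted p = 6.42e-14 and 6.85e-14 by limma; 1.38 and 1.19 without those libraries). *Lmnb1* was higher among those labelled cPLA_2_ WT (1.51 ± 0.05, adjusted p = 1.76e-15, and 1.41 without them). Among those labelled cPLA_2_ KO it was 0.12 ± 0.05 (adjusted p = 0.0628) and 0.17 without the library against its label (adjusted p = 0.00592). The value labelled cPLA_2_ KO was also called without confined cPLA_2_ KO replicate 2 (0.0447), with TMM scaling (0.0132), with the LPS libraries pooled (0.0361), and by edgeR (0.0164) and DESeq2 (0.0254), and was 0.56 with the same total per library (1.84e-08).

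*Emd* went in opposite directions, higher in confined cells than in LPS libraries labelled cPLA_2_ WT (0.68 ± 0.04, adjusted p = 2.46e-11 by limma, and 0.62 without the libraries against their labels) and lower than in those labelled cPLA_2_ KO (-0.54 ± 0.04, adjusted p = 4.42e-10, and -0.52). Scaled to the same total per library, these values were 0.96 and -0.10 (adjusted p = 1.77e-13 and 0.0483). *Syne2* was -0.06 ± 0.21 (adjusted p = 0.834) and -0.83 ± 0.21 (adjusted p = 0.00201), and 0.30 and -0.62 without those libraries. With the same total per library the first was 0.23 and the second was not called (-0.39, adjusted p = 0.128). *Lbr* was 0.15 ± 0.07 (adjusted p = 0.0562) among those labelled cPLA_2_ WT, called with TMM scaling (0.23, adjusted p = 0.00566) by edgeR and DESeq2 (0.00546 and 0.0113), with the LPS libraries pooled (0.0269) and with a filter of 100 normalized counts (0.0441). It was 0.73 ± 0.07 (adjusted p = 3.41e-09) among those labelled cPLA_2_ KO. Without the libraries against their labels *Lbr* measured 0.12 and 0.78. *Lmnb2* was not called among those labelled cPLA_2_ WT (0.07 ± 0.08, adjusted p = 0.491), but it was with the same total per library (0.36, adjusted p = 0.000412), as was *Lbr* (0.44, adjusted p = 1.19e-05).

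*Sun2* was lower in confined than in LPS libraries labelled cPLA_2_ WT (-0.20 ± 0.06, adjusted p = 0.00596 by limma) and turned to 0.09 with the same total per library (adjusted p = 0.0925). It was not called without the libraries against their labels (-0.10, adjusted p = 0.269), without LPS replicate 1 labelled cPLA_2_ WT (-0.14, 0.0513), with TMM scaling (-0.12, 0.0694) or by edgeR (-0.12, 0.0697). *Syne1* (-0.41 ± 0.15, adjusted p = 0.0288) was 0.01 without the libraries against their labels (adjusted p = 0.966). Its call was also lost without confined cPLA_2_ WT replicate 1 (-0.29, 0.157) and without LPS replicate 1 (-0.22, 0.211) or 3 (-0.38, 0.0801) labelled cPLA_2_ WT, with the LPS libraries pooled (-0.19, 0.227), with no filter (0.0541), the same total per library (-0.12, 0.546), TMM scaling (0.0718) or the compared groups alone (0.069), and by edgeR (0.0534) and DESeq2 (0.0677). *Sun1* (-0.17 ± 0.08, adjusted p = 0.079) was called without the libraries against their labels (-0.33, 0.0024) and without LPS replicate 1 labelled cPLA_2_ WT (0.027), and was 0.12 with the same total per library. *Tmpo* (0.26 ± 0.08, adjusted p = 0.00839) was not called without the libraries against their labels (0.08, 0.481) or without LPS replicate 1 labelled cPLA_2_ WT (0.17, 0.0734), and was 0.55 with the same total per library.

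Among those labelled cPLA_2_ KO, *Lmnb2* (0.33 ± 0.08), *Sun2* (0.36 ± 0.06) and *Syne1* (0.87 ± 0.15) were higher in confined cells by limma (adjusted p = 0.00111, 1.05e-05 and 3.42e-05), and measured 0.34, 0.32 and 0.95 without the library against its label. *Sun1* (0.10 ± 0.08) and *Tmpo* (0.14 ± 0.08) were not called (adjusted p = 0.265 and 0.124), but they were without that library (0.20 and 0.22, adjusted p = 0.0127 and 0.00419) and with the same total per library (0.55 and 0.58, adjusted p = 9.8e-06 and 3.89e-06). *Tmpo* was also called with TMM scaling (0.0479) and with the LPS libraries pooled (0.0318). The same total per library gave 0.78 for *Lmnb2*, 0.80 for *Sun2*, 1.31 for *Syne1* and 1.17 for *Lbr*.

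Other genes of the envelope were given as lists chosen by function, and their counts stand beside 28.2% of all genes higher and 28.4% lower with confinement in cPLA_2_ WT and 22.8% and 23.4% in cPLA_2_ KO. Of 15 tested genes for other inner membrane and lamina-binding proteins, 5 were higher and 8 lower with confinement in cPLA_2_ WT, and 3 and 7 in cPLA_2_ KO, with medians of -0.17 and -0.24 beside -0.01 and 0.01 over all tested genes. *Tor1aip2*, a torsin activator of the endoplasmic reticulum membrane, rose most in cPLA_2_ WT (7585 to 18839 normalized counts, log2 fold change 1.31 ± 0.04) and *Tmem43*, which binds emerin, in cPLA_2_ KO (2132 to 4373, 1.03 ± 0.06). *Nrm*, the gene of nurim, fell most in both (-1.15 ± 0.08 and -0.94 ± 0.08). Of 10 tested genes for other LINC and torsin proteins, 2 were higher and 4 lower in cPLA_2_ WT and 2 and 3 in cPLA_2_ KO. The torsin gene *Tor3a* rose most in cPLA_2_ WT (1.13 ± 0.06) and the plectin gene *Plec* in cPLA_2_ KO (1.30 ± 0.18), and *Tor4a* in cPLA_2_ WT (-0.51 ± 0.04) and the formin gene *Fhod1* in cPLA_2_ KO (-0.28 ± 0.06) fell most.

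Among the enzymes that mature prelamin, 0 of 5 were higher and 2 lower in cPLA_2_ WT and 0 and 1 in cPLA_2_ KO. *Fntb*, a farnesyltransferase subunit, fell most in cPLA_2_ WT (-0.50 ± 0.09), and *Zmpste24*, the protease that cleaves prelamin A, in cPLA_2_ KO (-0.23 ± 0.05). Of 19 genes of envelope sealing and repair, 10 were higher and 3 lower in cPLA_2_ WT and 8 and 2 in cPLA_2_ KO, with medians of 0.13 and 0.10. *Ist1*, an ESCRT-III gene, rose most in cPLA_2_ WT (4378 to 11234 normalized counts, 1.36 ± 0.04), *Lpin1* in cPLA_2_ KO (0.82 ± 0.15), and *Vps25* fell most in both (-0.40 ± 0.05 and -0.26 ± 0.05).

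Of 31 genes of the nuclear pore, 6 were higher and 20 lower with confinement in cPLA_2_ WT and 3 and 15 in cPLA_2_ KO, with medians of -0.39 and -0.17. *Nup98* rose most (2562 to 6507 normalized counts in cPLA_2_ WT, 1.34 ± 0.07, and 0.43 ± 0.07 in cPLA_2_ KO) and *Nup210*, a membrane protein of the pore, fell most (6182 to 2082 in cPLA_2_ WT, -1.57 ± 0.09, and -0.84 ± 0.09 in cPLA_2_ KO). The pore gene *Nup62* shares an entry with *Il4i1* and is uncertain for that reason. With LPS, higher and lower counts among libraries labelled cPLA_2_ WT were 5 and 10 for inner membrane genes, 3 and 4 for LINC and torsin genes, 1 and 2 for prelamin enzymes, 13 and 4 for sealing genes, and 11 and 19 for pore genes. Among libraries labelled cPLA_2_ KO they were 5 and 10, 3 and 4, 0 and 1, 13 and 4, and 11 and 15. The shares of all genes with LPS were 33.4% higher and 29.4% lower among libraries labelled cPLA_2_ WT and 33.4% and 30.1% among those labelled cPLA_2_ KO.

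The 5 genes most like *Emd*, 1 of the 3 members with the widest span, were found by Pearson correlation of log2 values over the 18 libraries among 10553 genes with a symbol. They were *Nupr1* (r = 0.988), *Tlcd1* (0.986), *Mthfd2* (0.985), *Gm7334* (0.985) and *Smox* (0.984). The libraries fall into 6 groups, so these values describe the pattern over groups and carry no p. The like genes of the other members are not given.

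Promoter windows of 300 bases from RefSeq, which begin 250 bases before the start of transcription, were searched on both strands for 4 motifs. Members other than *Lmnb1* matched 15 windows of 9 genes. CCAAT was in 7 windows of 6 members (*Emd*, *Lbr*, *Lmna*, *Sun1*, *Sun2* and *Tmpo*) and in 37.4% of 32851 windows of all genes. The E2F-like TTTNNCGC was in 1 window, of *Tmpo*, and in 5.17% of all windows. The ISRE-like GAAANNGAA and the NF-kB motif were in no searched member window and in 8.56% and 11.2% of all. A match is a description and not a binding site. *Lbr* and *Tmpo* fell with confinement and with LPS under both labels, as did *Lmnb2*, which had no CCAAT, and *Sun2*, while *Emd* and *Lmna*, which had it, rose in all of these, *Lmna* not so with the same total per library for LPS labelled cPLA_2_ KO. Of the *Tmpo* windows, 1 had 2 matches in the 250 bases before the start and another had 0. *Lbr* and the first of these *Tmpo* windows are shown by the 250 bases before the start, 5′ to 3′ on the minus strand of GRCm38.p6, a build other than the mm39 of the expression table, with CCAAT or its complement in capitals, at chr1:181842402-181842651 and chr10:91171620-91171869.
Lbr: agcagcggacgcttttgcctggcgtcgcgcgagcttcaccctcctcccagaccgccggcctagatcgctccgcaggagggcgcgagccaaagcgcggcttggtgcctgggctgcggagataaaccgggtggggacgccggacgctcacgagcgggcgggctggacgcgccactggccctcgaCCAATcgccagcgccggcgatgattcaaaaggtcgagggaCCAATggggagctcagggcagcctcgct
Tmpo: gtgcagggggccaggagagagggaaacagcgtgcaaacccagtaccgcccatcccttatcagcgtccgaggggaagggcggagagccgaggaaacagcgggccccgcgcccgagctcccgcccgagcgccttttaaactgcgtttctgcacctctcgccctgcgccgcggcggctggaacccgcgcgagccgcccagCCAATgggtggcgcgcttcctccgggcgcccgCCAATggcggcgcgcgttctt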

How the data were processed

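The deposited values are a signal per gene that the authors made by mapping reads with STAR 2.7.5a to mm39, counting reads per gene of Mouse FAST DB with featureCounts 1.5.0, and scaling each library by its DESeq2 size factor. This scaling sets what counts as unchanged. Groups and replicate numbers come from the labels. A protocol entry mentions LPS for every sample, while titles and treatment entries name it for the LPS groups alone, and the latter were followed. Whole reads were recovered from the values, 100% of which were whole within 0.01. There were 0 library pairs with identical values.

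Log2(normalized count + 1) was fitted with limma 3.58.1 (lmFit, contrasts.fit, eBayes with the trend option) in R 4.3.3, with a mean per group over 18 libraries, for genes that reached 10 normalized counts in 3 or more libraries. Adjusted p-values are Benjamini-Hochberg values within a comparison over all tested genes, and a called gene had one under 0.05, with no limit on fold. The fit was also run on simulated data, and the outcome is not given here. Values after ± are SE for log2 fold changes and SD for levels and ratios. Lengths and overlaps are from the GENCODE annotation of GRCm39, with lengths as exon unions.

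Alternatives tried on every comparison were the pseudocount (0.5 or 5), the filter (none, or 100), other scaling (equal library totals, or TMM factors), other tools on recovered reads (edgeR 4.0.16 and DESeq2 1.42.0), a fit of the compared groups alone, a replicate block, limits on fold, and omission of single libraries. LPS libraries were also pooled. The LPS setting by *Ddx3y*, the medians of long genes and levels per kb of the longest transcript were added after the values had been seen. Members and lists were chosen with earlier results of these data known. Named genes are the members, *Pla2g4a*, *Ddx3y*, the called gene with the largest increase and decrease in each list (mean of 100 normalized counts or more), and the 5 genes most like *Emd*, with those of other members left out. *Xist*, *Tpsab1*, *Nup62* and the most abundant gene of each list were named after their values had been seen, and genes that share exon bases with a member for their position. Python 3.11.15, pandas 2.3.3, numpy 2.4.6 and matplotlib 3.10.9 were used.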

Additional observations from a re-analysis of the deposited data

Results flagged for a closer look

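The response to confinement differed between cPLA_2_ WT and cPLA_2_ KO cells by the interaction term of limma in 6 of 10 members, against 10.2% of all genes higher and 15.6% lower. With the same total per library 9 members were called, against 37.5% of all genes, and in a fit of the compared groups alone 8, against 29.2%. The difference of the log2 fold changes, cPLA_2_ KO minus cPLA_2_ WT, was -0.54 for *Lmna*, -1.14 for *Lmnb1*, -1.29 for *Emd*, 0.71 for *Lbr*, 0.37 for *Sun2* and 0.74 for *Syne1*. The interaction was higher for 11 of 14 neutrophil genes and 12 of 25 cell division genes, with 0 lower in each, and lower for 8 of 15 DC markers, with 1 higher. *Ddx3y* moved with genotype. The part of these in the differences was not tested.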

How the results depend on the processing

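Of 1090 member values under settings other than leaving out 1 library, 1027 kept their direction and side of the threshold, 31 became called, 17 lost the call, 12 moved and 3 called values changed sign. With the same total per library, *Lmna* with LPS labelled cPLA_2_ KO was -0.20 and *Sun2* in confined against LPS libraries labelled cPLA_2_ WT was 0.0931. With the LPS libraries that match their label in *Ddx3y*, *Syne1* in confined against LPS libraries labelled cPLA_2_ WT was 0.0108. The cause was not tested. Of 660 values with 1 library left out, 607 were unchanged in direction and call, 10 became called, 27 lost the call, 16 moved and 0 called values changed sign.

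With a log2 fold change above 1 required, members called were 4 and 1 for confinement in cPLA_2_ WT and cPLA_2_ KO, 2 for the interaction, 2 and 2 for LPS labelled cPLA_2_ WT and cPLA_2_ KO, 0 and 3 for genotype in nonconfined and confined cells, and 2 and 1 for confined against LPS. The shares of all genes were 19.0% and 12%, 7.67%, 27.4% and 27.9%, 1.15% and 10.1%, and 13.8% and 23.0%. With a fold of 1.5 and an unadjusted p they were 6 and 3 for confinement, 5 for the interaction, 7 and 6 for LPS labelled cPLA_2_ WT and cPLA_2_ KO, 0 and 4 for genotype, and 3 and 4 for confined against LPS, with shares of all genes of 34.5% and 23.6%, 16.5%, 43.1% and 43.9%, 5.59% and 19.4%, and 26.2% and 37.7%. These limits by construction remove smaller changes. With 1 library left out the counts ranged 10 to 10 and 7 to 8 for confinement, 6 to 7 for the interaction, 8 to 8 and 9 to 10 for LPS, 2 to 6, 6 to 8 and 0 to 0 for genotype in nonconfined, confined and LPS cells, and 4 to 6 and 7 to 10 for confined against LPS. The share of all genes called ranged 52.0% to 54.1% and 40.7% to 44.1%, 22.7% to 26.1%, 58.9% to 60.6% and 59.6% to 61.7%, 4.23% to 11.7%, 34.3% to 35.5% and 0% to 0.0168%, and 43.8% to 46.3% and 54.5% to 56.5%, in the same order.

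With the same total per library, the share of called genes of all tested that were higher moved from 49.8% to 32.7% for confinement in cPLA_2_ WT, 39.5% to 70.7% for the interaction, 53.1% to 25.5% and 52.6% to 26.2% for LPS labelled cPLA_2_ WT and cPLA_2_ KO, 53.8% to 42.0% and 47.7% to 69.7% for genotype in nonconfined and confined cells, and 44.2% to 75.0% and 47.9% to 77.4% for confined against LPS. In counts these were 3578 higher and 7380 lower, 4741 and 1962, 3182 and 9294, 3271 and 9190, 757 and 1045, 6001 and 2604, 7353 and 2455, and 9611 and 2814. The cause was not tested.

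With a replicate block, 1 of 100 member calls changed, *Lbr* in confined against LPS libraries labelled cPLA_2_ WT (adjusted p = 0.0475 by limma). After group means were removed, like-numbered replicates correlated with r from -0.06 to 0.18 for confinement in cPLA_2_ WT and from 0.04 to 0.34 for genotype in confined cells. With lengths from the longest transcript the mean lamin ratios of cPLA_2_ WT and cPLA_2_ KO were 0.552 and 0.837 in nonconfined and 1.34 and 2.96 in confined libraries. In LPS libraries so labelled they were 1.43 and 1.39. The lengths shortened unequally, from 6196 to 4251 bases for *Lmna*, 3610 to 3228 for *Lmnb1* and 4578 to 3561 for *Lmnb2*.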
